A study of Mus musculus with 12 samples.

Results

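Iron export, storage and sensing in the mouse fetal liver were followed through 6 genes: Slc40a1, Fth1, Ftl1, Slc11a2, Ireb2 and Aco1. The members are the Argonaute (Ago) binding peaks that the authors' deposited peak table assigns to one of these gene names, which gave 121 of 106382 peaks and 6 of 12102 gene names. The study used Ago HITS-CLIP, in which protein is crosslinked to RNA by ultraviolet light, Ago is precipitated with an antibody and the short RNA fragments that come with it are sequenced. Each library was made from 100000000 fetal liver cells of C57BL/6J mice. The 4 groups of 3 libraries were miR-144/451-/- cells with an Ago antibody (KO Ago, libraries 3, 12 and 13), WT cells with an Ago antibody (WT Ago, libraries 1, 9 and 10), miR-144/451-/- cells with control IgG (KO IgG, libraries 4, 8 and 14) and WT cells with control IgG (WT IgG, libraries 2, 6 and 11). The labels give no age of the embryos. They do not say whether libraries of a group came from separate livers, so the p-values rest on differences among libraries that may be partly technical.

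Iron enters erythroid cells as transferrin-bound iron, is stored in ferritin and leaves macrophages and hepatocytes through ferroportin. A pair of iron regulatory proteins bind RNA hairpins called iron-responsive elements when iron is scarce. Bound in a 5′UTR, as in the ferritin and ferroportin mRNAs, they block translation, and bound in a 3′UTR, as in the transferrin receptor mRNA, they stabilise the message. The miR-144/451 locus is transcribed at a high level in erythroid precursors and yields the microRNAs (miRNAs) miR-144 and miR-451a, which Ago carries to matching sites in mRNAs.

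The sequences below are the mature miRNAs whose seed matches the deposited table codes for each peak and which are named in these results, taken from RefSeq (GRCm38.p6), with the seed (bases 2 to 8) in capitals. The first 3 come from the deleted locus on chromosome 11, and the last 2 are made elsewhere in the genome.
miR-451a: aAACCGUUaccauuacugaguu
miR-144-3p: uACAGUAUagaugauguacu
miR-144-5p: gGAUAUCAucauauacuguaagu
miR-16-5p: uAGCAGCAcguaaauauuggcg
miR-21a-5p: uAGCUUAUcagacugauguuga
No seed is shared between them. A site that pairs with bases 2 to 7 (a 6-mer) reads ACGGTT for miR-451a, TACTGT for miR-144-3p, GATATC for miR-144-5p, GCTGCT for miR-16-5p and TAAGCT for miR-21a-5p on the mRNA.

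The 121 peaks held 2931 Ago reads, from 5 to 388 per peak with a median of 14. Only 27 of them held 30 Ago reads or more. No peak of these genes had counts matching those of a peak of another gene, whereas 1198 peaks of the whole table did. Equal counts were looked for only among peaks with at least 20 Ago reads. Counts within 10% were looked for only among peaks with at least 50, so most of the 121 peaks were not checked. Depth set the precision: the KO Ago libraries held 147969 to 341061 reads in peaks and the WT Ago libraries 202876 to 452157, against 24622 to 42916 in KO IgG and 25985 to 42399 in WT IgG. Levels are given as reads per 1000000 reads in all peaks of a library (RPM). They are not divided by transcript length and are not compared between genes. No matched mRNA measurement is used here, so a change in the amount of an mRNA and a change in Ago binding to it cannot be told apart, and neither can fewer cells of a type and less RNA per cell.

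Reads on cell type markers were summed in each library. Reads in peaks of 11 hepatocyte marker genes made up 0.993% to 1.95% of the KO Ago libraries and 0.541% to 1.58% of the WT Ago libraries, with the highest value in library 13 of the KO group and in library 10 of the WT group. Of 15 erythroid markers, the 9 with peaks (the globins are not analysed here) gave 0.689% to 0.865% in KO Ago and 0.866% to 1.104% in WT Ago, so these groups did not overlap. The margin was narrow, from 0.8647% in KO library 12 to 0.8656% in WT library 10. In the IgG libraries the same markers gave 0.651% to 0.707% in KO and 0.550% to 0.804% in WT, and those groups overlapped. Macrophage markers (11 of 12 with peaks, all but Cd68) stayed at 0.0589% to 0.0703% in KO Ago and 0.0397% to 0.0828% in WT Ago. The part of these marker reads in the results on the iron genes was not tested except where libraries 13 and 10 were left out together.

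Slc40a1 encodes ferroportin, the only known cellular iron exporter of mammals, and lies on chromosome 1 (chr1:45908070-45926532, minus strand, mm10). It carried 29 peaks, of which 2 lay in the 5′UTR, 20 in coding sequence and 7 in the 3′UTR. Summed over its peaks it stood at 448, 663 and 527 RPM in KO Ago libraries, against 411, 529 and 567 RPM in WT Ago libraries. The groups overlapped and the gene did not pass the test (log2 fold change 0.08 ± 0.19 SE, adjusted p = 0.847). Its 5′UTR, where the iron-responsive element of this mRNA is known to lie, held 6 reads in KO Ago and 9 in WT Ago.

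A pair of neighbouring 3′UTR peaks near the RefSeq 3′ end of Slc40a1 stood on opposite sides in RPM, although the difference between them was not tested. The larger, at chr1:45908297-45908329, had 111, 108 and 135 RPM in KO Ago and 95.9, 81.8 and 93.7 RPM in WT Ago. Every KO library was thus above every WT library, but the test found log2 fold change 0.16 ± 0.29 (adjusted p = 0.784). The smaller, at chr1:45908398-45908430, had 10.1, 23.5 and 20.3 RPM in KO Ago against 30.8, 59.7 and 49.3 RPM in WT Ago, and every KO library was below every WT library. It was too low for the main filter. With a minimum count of 5 in the filter its log2 fold change was -1.56 ± 0.47 (edgeR adjusted p = 0.0269). The smaller peak would not have passed that filter without its WT libraries, so its entry and its direction are not independent. The authors' deposited table gives it a log fold change of -1.91 with an FDR of 0.00555, and gives the larger neighbour -0.28 with an FDR of 0.528. Both are negative there. The table codes the lower peak with single seed mismatches to miR-451a and miR-144-3p and codes the neighbour with no match to the locus. The other Slc40a1 peaks together stood at 438, 639 and 507 RPM in KO Ago against 380, 469 and 518 RPM in WT Ago.

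The remaining 10 Slc40a1 peaks of 30 reads or more were 1 in the 3′UTR and 9 in coding sequence. The coding peak at chr1:45912355-45912374 had 10.1, 5.86 and 20.3 RPM in KO Ago and 34.2, 19.9 and 24.6 RPM in WT Ago. Its groups overlapped by a narrow margin and it missed the test at a minimum count of 5 (log2 fold change -1.51 ± 0.59, adjusted p = 0.107). In coding sequence, chr1:45911453-45911520 had 30.2, 46.9 and 27.0 RPM in KO Ago and 6.85, 24.3 and 24.6 RPM in WT Ago. Nearby, chr1:45909692-45909716 had 25.2, 26.4 and 27.0 RPM in KO Ago and 6.85, 17.7 and 14.8 RPM in WT Ago. Both were higher in every KO library, with adjusted p of 0.468 and 0.537 at a minimum count of 5. The coding peak at chr1:45911042-45911079, which holds a 6-mer match to miR-144-5p, had 20.1, 73.3 and 47.3 RPM in KO Ago and 20.5, 37.6 and 29.6 RPM in WT Ago. The genotypes overlapped at this match to the deleted locus.

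The other coding peaks of Slc40a1 overlapped between genotypes. At chr1:45910892-45910928, which carries an 8-mer match to miR-16-5p, the levels were 25.2, 35.2 and 40.5 RPM in KO Ago and 17.1, 28.8 and 49.3 RPM in WT Ago. At chr1:45911300-45911331 they were 30.2, 41.0 and 27.0 RPM in KO Ago and 37.7, 26.5 and 14.8 RPM in WT Ago. At chr1:45911211-45911256 they were 20.1, 35.2 and 27.0 RPM in KO Ago and 23.97, 28.8 and 19.7 RPM in WT Ago. None of these came near the threshold, with adjusted p of 0.944 to 0.978 at a minimum count of 5. At chr1:45909652-45909689 they were 20.1, 20.5 and 20.3 RPM in KO Ago and 20.5, 19.9 and 24.6 RPM in WT Ago. At chr1:45909519-45909577 they were 20.1, 35.2 and 6.76 RPM in KO Ago and 17.1, 31.0 and 39.4 RPM in WT Ago. In the 3′UTR at chr1:45909371-45909400 they were 30.2, 32.3 and 40.5 RPM in KO Ago and 20.5, 22.1 and 39.4 RPM in WT Ago. These last 3 peaks had adjusted p of 0.696 to 0.918 in the same fit.

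**Figure D1:**
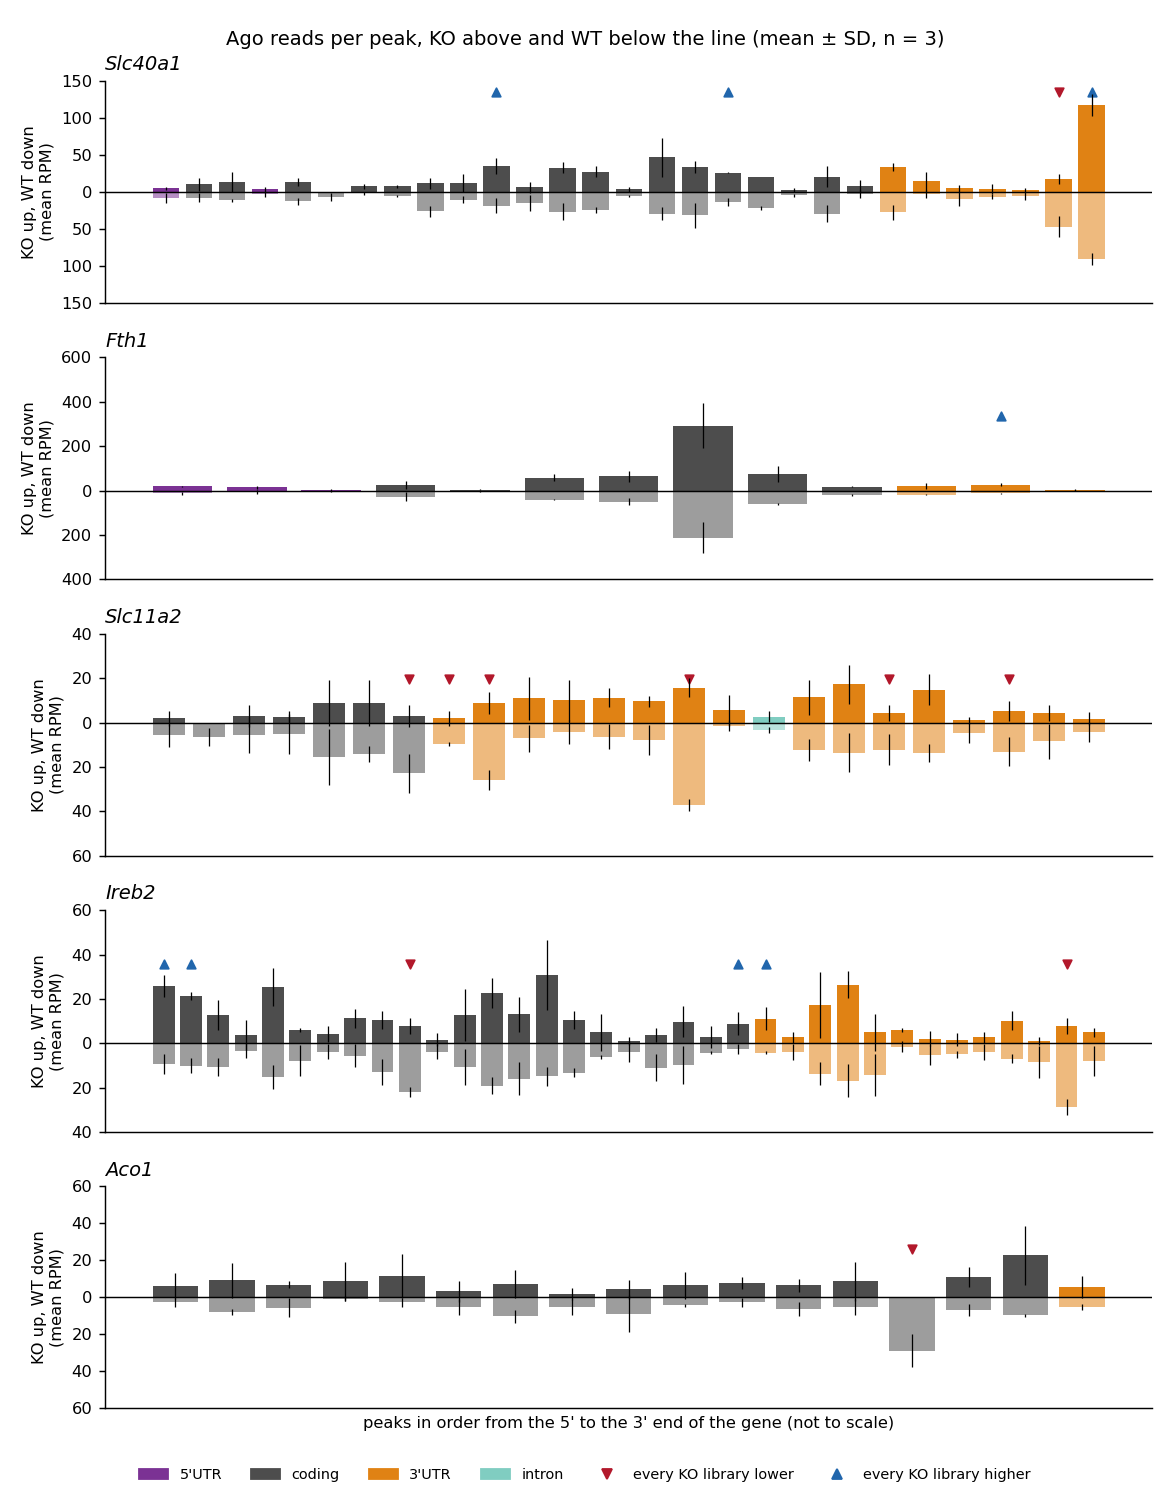
Mean Ago RPM of every peak of 5 genes in order from the 5′ to the 3′ end, with KO bars above and WT bars below the line, shaded paler (error bars: SD, n = 3), coloured by the deposited annotation. Triangles mark peaks with at least 10 Ago reads whose KO libraries all lie below (red, pointing down) or above (blue, pointing up) the WT libraries; 6 of the 10 lower peaks are in Slc11a2.

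Slc11a2 encodes DMT1, the transporter that moves ferrous iron out of the endosome in erythroid precursors and into the enterocyte. It lies at chr15:100387898-100424209 on the minus strand, and its 24 peaks were 7 in coding sequence, 16 in the 3′UTR and 1 in an intron. Of the 6 genes it was the one whose summed Ago reads were lower in every KO library, with 151, 185 and 155 RPM in KO Ago against 226, 321 and 237 RPM in WT Ago. The means were 164 ± 18.4 RPM in KO Ago and 261 ± 51.9 RPM in WT Ago (SD, n = 3 each). Of all 4441 genes tested, 12.9% had every KO library below every WT library. The edgeR test gave a log2 fold change of -0.73 ± 0.21 and an adjusted p of 0.0514, which is just outside the threshold of 0.05. The call was made when only 3′UTR and coding peaks were summed (adjusted p = 0.0352), when only peaks with an authors' IgG ratio (IgG over Ago peak height) under 0.2 were summed (0.0228) and without WT Ago library 10 (0.0444). DESeq2 gave an adjusted p of 0.233, scaling by library size alone gave 0.133, and without libraries 10 and 13 together it was 0.171. The labels tie no KO library to a WT library, but the Ago libraries ranked alike in the share of reads in peaks without a gene name had close values of it, at 22.1%, 12.0% and 19.0% in KO libraries 3, 12 and 13 against 21.6%, 12.3% and 19.5% in WT libraries 1, 9 and 10. With these pairs as a block, an alternative chosen after seeing the data, Slc11a2 was called lower (-0.75, edgeR adjusted p = 1.46e-04). That fit called 16.8% of all genes lower and 10.9% higher, against 5.29% and 0.653% without the block.

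The lower reads in Slc11a2 came from several peaks. Without its most read peak the gene still stood at 136, 173 and 135 RPM in KO Ago against 188, 281 and 202 RPM in WT Ago. Its coding peaks together had 25.2, 38.1 and 20.3 RPM in KO Ago against 58.2, 95.1 and 73.9 RPM in WT Ago, a ratio of summed reads of 0.386 (95% exact interval 0.226 to 0.632, counting error only). Its 3′UTR peaks together had 121, 143.7 and 135 RPM in KO Ago against 164, 223 and 158 RPM in WT Ago, a ratio of 0.707 (0.545 to 0.913). Both regions were lower in every KO library. The mRNA is known to end at alternative sites, of which 1 form carries an iron-responsive element in its 3′UTR. The 16 3′UTR peaks lay in 8 nearer the RefSeq 3′ end and 8 nearer the coding sequence, and the files do not say to which form each belongs. The 8 nearer the 3′ end had 40.2, 64.5 and 74.3 RPM in KO Ago against 54.8, 113 and 78.9 RPM in WT Ago. The 8 nearer the coding sequence had 80.5, 79.2 and 60.8 RPM in KO Ago against 110, 111 and 78.9 RPM in WT Ago. Each set overlapped between genotypes, with ratios of 0.680 (0.456 to 1.00) and 0.731 (0.512 to 1.03).

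The Slc11a2 peak with the most reads was the 3′UTR peak at chr15:100393007-100393044. It had 15.1, 11.7 and 20.3 RPM in KO Ago against 37.7, 39.8 and 34.5 RPM in WT Ago, and no IgG library held a read there. At a minimum count of 5 its log2 fold change was -1.57 ± 0.48 (edgeR adjusted p = 0.0270). The peak would not have passed that filter without its WT libraries, so its entry and its direction are not independent. The authors' deposited table lists it at -1.88 with an FDR of 0.00412. Its code for the locus is a single mismatch to miR-144-3p. The next, at chr15:100395078-100395127 in the 3′UTR, had 5.03, 14.7 and 6.76 RPM in KO Ago against 30.8, 22.1 and 24.6 RPM in WT Ago, with an adjusted p of 0.1004 in the same fit. Its IgG ratio was 0.474, above the limit of 0.2 used here. The coding peak at chr15:100395215-100395257, named after its values were seen, had 0, 8.80 and 0 RPM in KO Ago against 30.8, 13.3 and 24.6 RPM in WT Ago. It was called only with a minimum count of 3 (log2 fold change -2.41 ± 0.78, edgeR adjusted p = 0.0425), and not with no filter. The minimum count of 3 was chosen after seeing the data. The peak passed it through its WT libraries alone, so its entry and its direction are not independent. The 6-mer match to miR-144-3p of this gene lies in the 3′UTR peak at chr15:100395140-100395168, which held 2 reads in KO Ago and 9 in WT Ago.

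Aco1 encodes the cytosolic aconitase that becomes iron regulatory protein 1 when it loses its iron-sulphur cluster, and lies at chr4:40143265-40199009 on the plus strand. Its 17 peaks were 16 in coding sequence and 1 in the 3′UTR. The sum over them was 116, 108 and 162 RPM in KO Ago against 106, 106 and 138 RPM in WT Ago, and the groups overlapped (log2 fold change 0.07 ± 0.26, adjusted p = 0.909). One coding peak, at chr4:40193790-40193822, was unlike the rest. It is the only peak of these genes that holds a 6-mer match to miR-451a. It held 0, 0 and 0 reads in KO Ago against 11, 13 and 4 reads in WT Ago, or 37.7, 28.8 and 19.7 RPM in WT Ago. With 3 reads over the KO group as the floor, it was at least 6.78-fold lower in KO Ago. The IgG libraries held 1 read in KO and 2 in WT, so a KO IgG library held a read at the site although no KO Ago library did. Both WT IgG reads were in library 6, the only WT IgG library with Aco1 reads. At its low depth they make 47.2 RPM, above each WT Ago library at this site.

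This Aco1 peak, with 28 Ago reads, was named after its values were seen. It passed neither the main filter nor the minimum count of 5. The edgeR test called it with a minimum count of 3 (adjusted p = 5.06e-04) and with no filter (adjusted p = 7.36e-04). The minimum count of 3 was chosen after seeing the data, and the peak passed it through its WT libraries alone. The authors' deposited table gives it a log fold change of -4.37 with an FDR of 5.85e-06. It made up 25.6% of the Aco1 reads of the WT Ago libraries on average. Without it, the other 16 Aco1 peaks stood at 116, 108 and 162 RPM in KO Ago against 68.5, 77.4 and 118 RPM in WT Ago. These groups overlapped, with a ratio of summed reads of 1.46 (1.06 to 2.02). Leaving out a peak with no KO Ago read can only raise this ratio, and the interval does not allow for that choice.

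**Figure D2:**
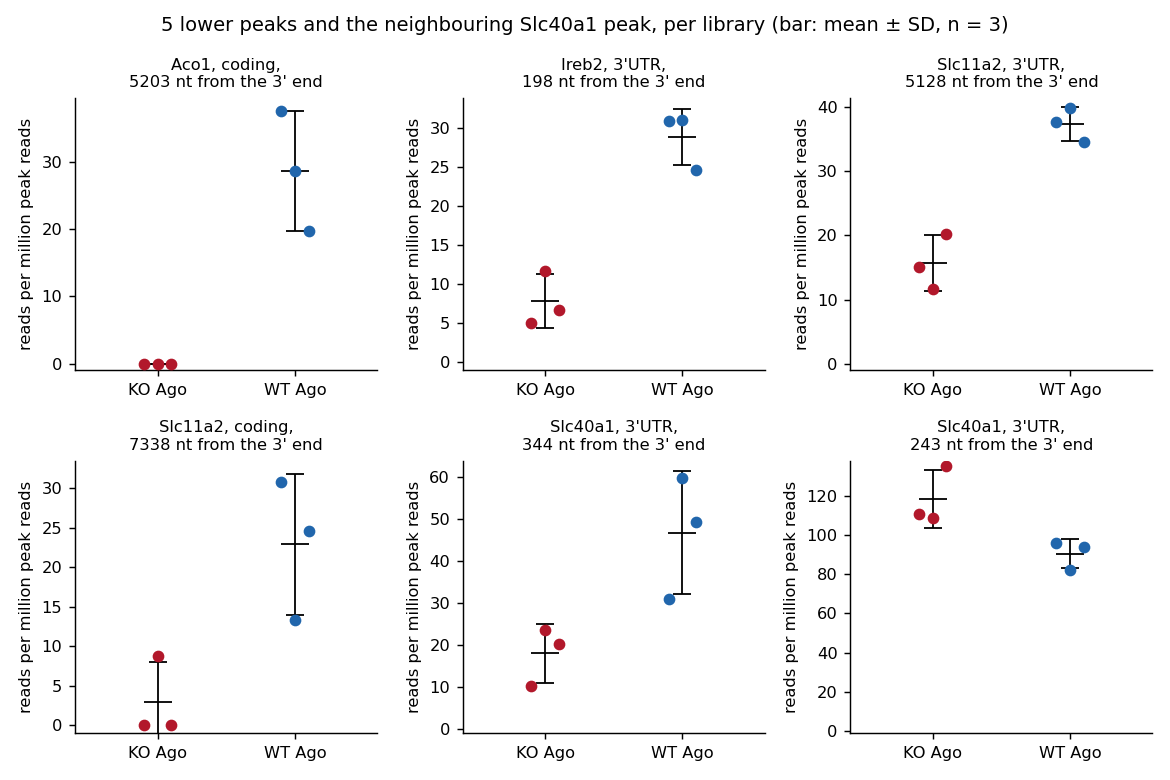
RPM per library (points) of the 5 peaks called lower with a minimum count of 3 and of the larger Slc40a1 3′UTR peak, KO Ago left and WT Ago right (bar: mean ± SD, n = 3), with the distance of each peak from the RefSeq 3′ end of its gene. In the 5 lower peaks no KO library reaches the lowest WT library, and the Aco1 peak is at 0 in all 3 KO libraries. The minimum count of 3 was chosen after seeing the data.

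Ireb2 encodes iron regulatory protein 2, which is degraded when iron is plentiful, and lies at chr9:54862658-54912534 on the plus strand. Its 35 peaks were 22 in coding sequence and 13 in the 3′UTR. The sum over them was 327, 466 and 257 RPM in KO Ago against 336, 403 and 271 RPM in WT Ago, with overlapping groups (log2 fold change 0.01 ± 0.21, adjusted p = 0.982). Of its 25 peaks with at least 10 Ago reads, every KO library was below every WT library in 2 and above in 4. Among all peaks with at least 10 Ago reads, 12.5% were lower and 8.69% were higher in this way. No Ireb2 peak was called higher with the main filter, a minimum count of 5 or 3, or no filter. The last 3′UTR peak but 1, at chr9:54912325-54912346, had 5.03, 11.7 and 6.76 RPM in KO Ago against 30.8, 31.0 and 24.6 RPM in WT Ago. At a minimum count of 5 its log2 fold change was -1.94 ± 0.56 (edgeR adjusted p = 0.0200). The peak passed that filter through its WT libraries alone, so its entry and its direction are not independent. The authors' deposited table lists the peak at -2.35 with an FDR of 9.39e-04. The table codes no match to the deleted locus in this peak.

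An 8-mer match to miR-144-3p lies in another Ireb2 3′UTR peak, at chr9:54910524-54910548. It had 0, 14.7 and 0 RPM in KO Ago against 3.42, 19.9 and 19.7 RPM in WT Ago. The groups overlapped, and the adjusted p was 0.504 with a minimum count of 3. The coding peak at chr9:54897498-54897527 had 5.03, 11.7 and 6.76 RPM in KO Ago against 23.97, 22.1 and 19.7 RPM in WT Ago, lower in every KO library. The authors' deposited table calls it at -1.97 with an FDR of 0.00403, whereas the edgeR test with a minimum count of 3 gave an adjusted p of 0.139. It was named after its values were seen and has no code for the locus.

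In the other direction, the first Ireb2 coding peaks were higher in KO Ago. At chr9:54881374-54881435 the levels were 30.2, 20.5 and 27.0 RPM in KO Ago against 13.7, 4.42 and 9.86 RPM in WT Ago, with an adjusted p of 0.289 at a minimum count of 5. At chr9:54882331-54882360 they were 20.1, 23.5 and 20.3 RPM in KO Ago against 6.85, 13.3 and 9.86 RPM in WT Ago. The first of these peaks holds a 6-mer and the next an 8-mer match to miR-16-5p, a broadly expressed miRNA made outside the deleted locus, and neither peak passed the test. Both were named after their values were seen.

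The other Ireb2 peaks of 30 reads or more overlapped between genotypes. In coding sequence, chr9:54904147-54904173 had 35.2, 44.0 and 13.5 RPM in KO Ago and 17.1, 17.7 and 9.86 RPM in WT Ago. Further upstream, chr9:54891128-54891159 had 35.2, 20.5 and 20.3 RPM in KO Ago and 20.5, 15.5 and 9.86 RPM in WT Ago. None of the 4 peaks in this set was called with a minimum count of 5 or 3 or with no filter. The peak at chr9:54904147-54904173 was too low to be tested with a minimum count of 5. Between them, chr9:54900542-54900568 had 15.1, 26.4 and 27.0 RPM in KO Ago and 20.5, 22.1 and 14.8 RPM in WT Ago. The 3′UTR peak at chr9:54910340-54910371 had 20.1, 32.3 and 27.0 RPM in KO Ago and 10.3, 15.5 and 24.6 RPM in WT Ago, and the authors' deposited table gives it 0.10 with an FDR of 0.905.

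Fth1 encodes the ferritin heavy chain, the ferroxidase subunit of the iron storage shell, and lies at chr19:9980600-9985111 on the plus strand. Processed copies of the ferritin genes are known in the mouse genome and how reads with several matches were placed is not stated, so Fth1 and Ftl1 levels are uncertain in that respect. Fth1 had 13 peaks: 3 in the 5′UTR, 7 in coding sequence and 3 in the 3′UTR. The sum was 800, 528 and 554 RPM in KO Ago against 548, 407 and 458 RPM in WT Ago. The groups overlapped, and the test gave a log2 fold change of 0.36 ± 0.23 (adjusted p = 0.370). Its 3 3′UTR peaks together were above WT in every KO library, at 55.3, 61.6 and 40.5 RPM in KO Ago against 34.2, 35.4 and 29.6 RPM in WT Ago. The 3 5′UTR peaks, in the region that holds the ferritin iron-responsive element, were likewise above WT in every KO library, at 35.2, 35.2 and 40.5 RPM in KO Ago against 17.1, 31.0 and 24.6 RPM in WT Ago. The intervals of the ratios of summed reads, 0.995 to 2.70 and 0.786 to 2.62, both held 1. The 5′UTR sum rests on 25 reads in KO Ago and 24 in WT Ago. The share of such region sums above WT over all genes is not given here. The 7 coding peaks together had a ratio of 1.29 (1.12 to 1.50) and the whole gene 1.33 (1.16 to 1.52), intervals above 1 that cover counting error only, while their groups overlapped. With the block of libraries alike in reads without a gene name, Fth1 was called higher (0.36, edgeR adjusted p = 0.0189), a call it did not reach in the other alternatives (0.214 to 0.852).

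Most Fth1 reads lay in 4 neighbouring coding peaks, which are 4 of the 5 peaks of these genes that passed the main filter. The largest, at chr19:9984610-9984653, held 45.9% of the gene's KO Ago reads and 44.4% of its WT Ago reads on average, with 407, 214 and 257 RPM in KO Ago and 291, 164 and 182 RPM in WT Ago. The peak at chr19:9984793-9984847 had 101, 93.8 and 33.8 RPM in KO Ago and 54.8, 59.7 and 64.1 RPM in WT Ago. The peak at chr19:9984263-9984286 had 90.5, 52.8 and 47.3 RPM in KO Ago and 61.6, 33.2 and 54.2 RPM in WT Ago. All overlapped between genotypes. The peak at chr19:9984188-9984224 had 55.3, 44.0 and 74.3 RPM in KO Ago and 37.7, 44.2 and 39.4 RPM in WT Ago. The 4 log2 fold changes ran from 0.18 to 0.23 with adjusted p from 0.743 to 0.813.

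The other Fth1 peaks of 30 reads or more also overlapped. At the start of the coding sequence, chr19:9982892-9982929 had 30.2, 5.86 and 40.5 RPM in KO Ago and 20.5, 11.1 and 49.3 RPM in WT Ago. The coding peak at chr19:9984865-9984888 had 20.1, 14.7 and 20.3 RPM in KO Ago and 23.97, 24.3 and 14.8 RPM in WT Ago. The 3′UTR peak at chr19:9984926-9984954 had 25.2, 32.3 and 6.76 RPM in KO Ago and 17.1, 19.9 and 19.7 RPM in WT Ago. No Fth1 peak held a 6-mer or longer match to a miRNA of the deleted locus, and a 3′UTR peak held a 6-mer match to miR-21a-5p.

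Ftl1 encodes the ferritin light chain, the subunit that favours core formation, and lies at chr7:45457944-45459886 on the minus strand. It had only 3 peaks and 43 Ago reads, too few to pass the filter of the tests per gene. Its sum was 30.2, 38.1 and 27.0 RPM in KO Ago against 20.5, 11.1 and 44.4 RPM in WT Ago, which overlap. Its 5′UTR peak at chr7:45459677-45459706, in the region of the iron-responsive element, had 30.2, 35.2 and 13.5 RPM in KO Ago against 10.3, 6.63 and 19.7 RPM in WT Ago. The groups overlapped, and the authors' deposited table gives the peak 0.62 with an FDR of 0.474. None of the 3 peaks had a code for the deleted locus.

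**Figure D3:**
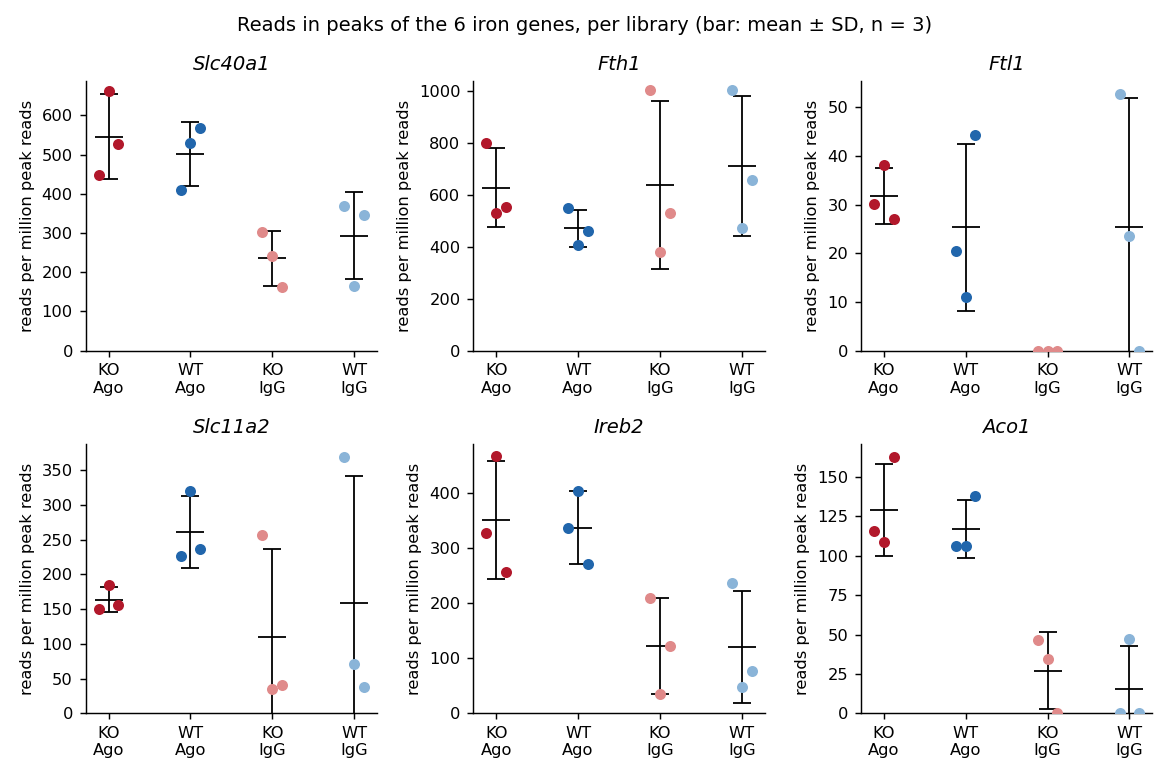
RPM summed over the peaks of each gene in each library (points), in the order KO Ago, WT Ago, KO IgG and WT IgG (bar: mean ± SD, n = 3). Slc11a2 is the gene in which the 3 KO Ago libraries (151 to 185 RPM) lie below the 3 WT Ago libraries (226 to 321 RPM).

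Counted over all peaks, the main test of KO against WT reached only 5 of the 121 peaks and called none of them, while 17.6% of the 2425 peaks tested in the whole table were lower and 1.4% were higher. None of the 5 had an unadjusted p under 0.05 with edgeR, and DESeq2 and limma-voom called none either. With a minimum count of 5, 26 of the 121 peaks were tested and 3 were lower (1 each in Slc40a1, Slc11a2 and Ireb2), where 13.3% of all tested peaks were lower. With a minimum count of 3, 48 were tested and 5 were lower, where 10.1% of all were. Restricted to the peaks of the authors' differential table, 10 peaks of these genes were tested and 4 were lower, where 28.5% of all were. With no filter all 121 were tested and 1 was lower, in Aco1, where 2.54% of all were. The peaks that passed a filter are not a fair sample of the 121, since a peak can pass through its higher group. No peak of these genes was called higher at any of these filters. The authors' deposited table holds 10 of the 121 peaks and puts 5 of them lower at an FDR of 0.05, where 35.7% of its peaks are lower.

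Among the 84 peaks of these genes with at least 10 Ago reads, 10 were lower in every KO library than in every WT library and 8 were higher. Over the whole table, 12.5% of such peaks were lower and 8.69% were higher. Of the 10 lower peaks, 6 were in Slc11a2, 2 in Ireb2, 1 in Slc40a1 and 1 in Aco1. The 8 higher were 4 in Ireb2, 3 in Slc40a1 and 1 in Fth1. These counts use RPM. Scaling by library size alone put the median of all tested peaks at a log2 fold change of 0.30, against 0.09 with TMM scaling, so RPM values stand higher in KO than the values of the test.

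Matches to the deleted locus were counted over the 121 peaks, and the share of all peaks of the table with such codes is not given here. A 6-mer or longer match to a miRNA of the locus was coded in 4 of the 121 peaks, 1 each in Aco1, Slc11a2, Ireb2 and Slc40a1. Their summed level was 20.1, 93.8 and 47.3 RPM in KO Ago against 71.9, 95.1 and 78.9 RPM in WT Ago, a ratio of 0.740 (95% exact interval 0.499 to 1.09). The Aco1 peak described above set this direction: without it the other 3 peaks held 43 reads in KO Ago and 52 in WT Ago, a ratio of 1.14 (0.742 to 1.74). Leaving out a peak with no KO Ago read can only raise the ratio. A further 32 peaks had only an offset 6-mer or a single mismatch, with a ratio of 1.04 (0.926 to 1.18). The 85 peaks without any code had a ratio of 1.16 (1.06 to 1.28). These ratios are per reads in all peaks, a scale on which the median of all tested peaks stood at a log2 fold change of 0.30. An interval above 1 is therefore not by itself a rise at these peaks. For comparison, 6 of the 121 peaks held a 6-mer or longer match to miR-16-5p and 2 to miR-21a-5p. Of the 5 peaks called lower with a minimum count of 3, the Aco1 peak held a 6-mer match, 3 held a single mismatch and the Ireb2 peak held neither. 

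Set against control IgG, the order of the groups depended on the scaling. Peaks that carry no gene name held 12.0% to 22.1% of the reads in the Ago libraries against 37.5% to 48.3% in the IgG libraries. The median of all tested genes stood at a log2 fold change of 0.22 (KO) and 0.13 (WT), Ago over IgG, with TMM scaling on reads in tested genes, but at 0.91 (KO) and 0.85 (WT) on the RPM scale, that is, per reads in all peaks. A positive value on the RPM scale is therefore shared by most genes. The peaks were also called on the pooled Ago libraries, so a higher value with Ago is partly fixed by the choice of peaks. With TMM scaling 10.4% of the 1988 genes tested in KO were lower with Ago and 2.16% higher, and 13.0% of the 2603 tested in WT were lower and 2.0% higher. On the RPM scale 29.4% were higher in KO and 25.9% in WT.

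Fth1 stood lowest against IgG. It had 800, 528 and 554 RPM in KO Ago against 1002, 381 and 528 RPM in KO IgG, and 548, 407 and 458 RPM in WT Ago against 1000.4, 472 and 654 RPM in WT IgG. The groups overlapped in both genotypes. With TMM scaling Fth1 was not called in KO (log2 fold change -0.75 ± 0.34, adjusted p = 0.151) and was called lower with Ago than with IgG in WT (-1.28 ± 0.31, adjusted p = 0.00161). The WT call was lost on the RPM scale (-0.59, adjusted p = 0.166), without WT Ago library 9 (0.0756) and without WT IgG library 2 (0.145). By the authors' IgG ratio, which sets the summed IgG peak height against the summed Ago peak height, 31 of the 121 peaks (25.6%) were at 0.2 or above, where 28.4% of all 106382 peaks were. They were 8 of the 13 peaks of Fth1, 8 of the 29 of Slc40a1, 8 of the 24 of Slc11a2, 4 of the 35 of Ireb2, 2 of the 17 of Aco1 and 1 of the 3 of Ftl1.

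Ireb2 and Aco1, which encode the iron sensors, stood highest against IgG. Ireb2 had 327, 466 and 257 RPM in KO Ago against 210, 34.6 and 122 RPM in KO IgG, and 336, 403 and 271 RPM in WT Ago against 237, 47.2 and 77.0 RPM in WT IgG. Every Ago library was above every IgG library, and the share of all genes for which this held is not given here. On the RPM scale it was called higher with Ago (KO adjusted p = 0.0188, WT adjusted p = 0.0121), and with TMM scaling it was not (0.348 and 0.312). Aco1 had 116, 108 and 162 RPM in KO Ago against 46.6, 34.6 and 0 RPM in KO IgG, and 106, 106 and 138 RPM in WT Ago against 0, 47.2 and 0 RPM in WT IgG. These rest on 3 and 2 IgG reads, too few for a test in KO, and WT was called on the RPM scale (adjusted p = 0.0200) but not with TMM (0.230).

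The 2 transporters lay between. Slc40a1 was at 303, 242 and 162 RPM in KO IgG and at 369, 165 and 346 RPM in WT IgG, below its Ago values in both genotypes. It was called higher with Ago in KO on the RPM scale (log2 fold change 1.16, adjusted p = 0.0217), not with TMM scaling (0.46 ± 0.37, adjusted p = 0.480), and in WT by neither. Slc11a2 was at 256, 34.6 and 40.6 RPM in KO IgG and at 369, 70.8 and 38.5 RPM in WT IgG, overlapping its Ago values, and was called by neither scaling in either genotype. Ftl1 had no read in KO IgG and 52.7, 23.6 and 0 RPM in WT IgG. KO IgG library 4 and WT IgG library 2 held the highest Slc40a1, Fth1, Slc11a2 and Ireb2 values of their groups. Library 4 was also highest for Aco1 in KO IgG, and library 2 for Ftl1 in WT IgG. The Ago to IgG difference did not differ detectably between genotypes: the interaction was called in 0.0% of 2654 genes, and the adjusted p of the 5 genes tested was 0.962 to 0.989. On simulated counts that test recovered 3% of 2-fold and 27% of 4-fold interactions, so most differences of such size would have been missed.

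Other genes of iron handling were taken from a list of 48. Of these, 28 were tested per gene, 1 was lower in KO Ago, none was higher and 27 were not called, where 5.29% of all 4441 genes were lower and 0.653% were higher. A further 11 were not tested and 9 are not analysed here. The median log2 fold change of the 28 was 0.14, against 0.03 over all tested genes. The lower gene was Tfrc, the transferrin receptor whose mRNA carries iron-responsive elements in its 3′UTR. It had 1212, 1193 and 1027 RPM in KO Ago against 1993, 2550.0 and 2445 RPM in WT Ago (log2 fold change -1.07 ± 0.16, adjusted p = 0.00150), and 6 of its 10 tested peaks were lower. Over the whole list 15 of 85 tested peaks were lower and none was higher, which is 17.6%, as over all 2425 tested peaks (17.6% lower and 1.4% higher). Slc25a37, the mitochondrial iron importer of erythroid cells, had the most Ago reads of the list, a log2 fold change of -0.36 ± 0.15 (adjusted p = 0.167) and 7 of 26 tested peaks lower. Alas2, which starts haem synthesis in erythroid cells, stood at -0.29 ± 0.18 (adjusted p = 0.345). Trf, the iron carrier of plasma made by hepatocytes and itself 1 of the 11 hepatocyte markers, stood at 0.46 ± 0.35 (adjusted p = 0.461), with its highest values, 2947 RPM in KO Ago library 13 and 2627 RPM in WT Ago library 10, in the libraries with the most reads on that list. Ncoa4, the receptor that delivers ferritin to the lysosome, stood at -0.15 ± 0.21 (adjusted p = 0.700).

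By role, the call came from the mRNAs regulated by or linked to the iron regulatory proteins (1 of 5 tested) and from transferrin uptake (1 of 6 tested), since Tfrc is in both lists. None of the 6 genes tested for ferritin loading, ferritin turnover and haem recycling was called, nor any of the 9 tested for degradation of iron regulatory protein 2 and iron-sulphur cluster supply. The hepcidin axis had 1 tested gene of 7 and the oxidases of exported iron 1 of 3, and neither was called.

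**Figure D4:**
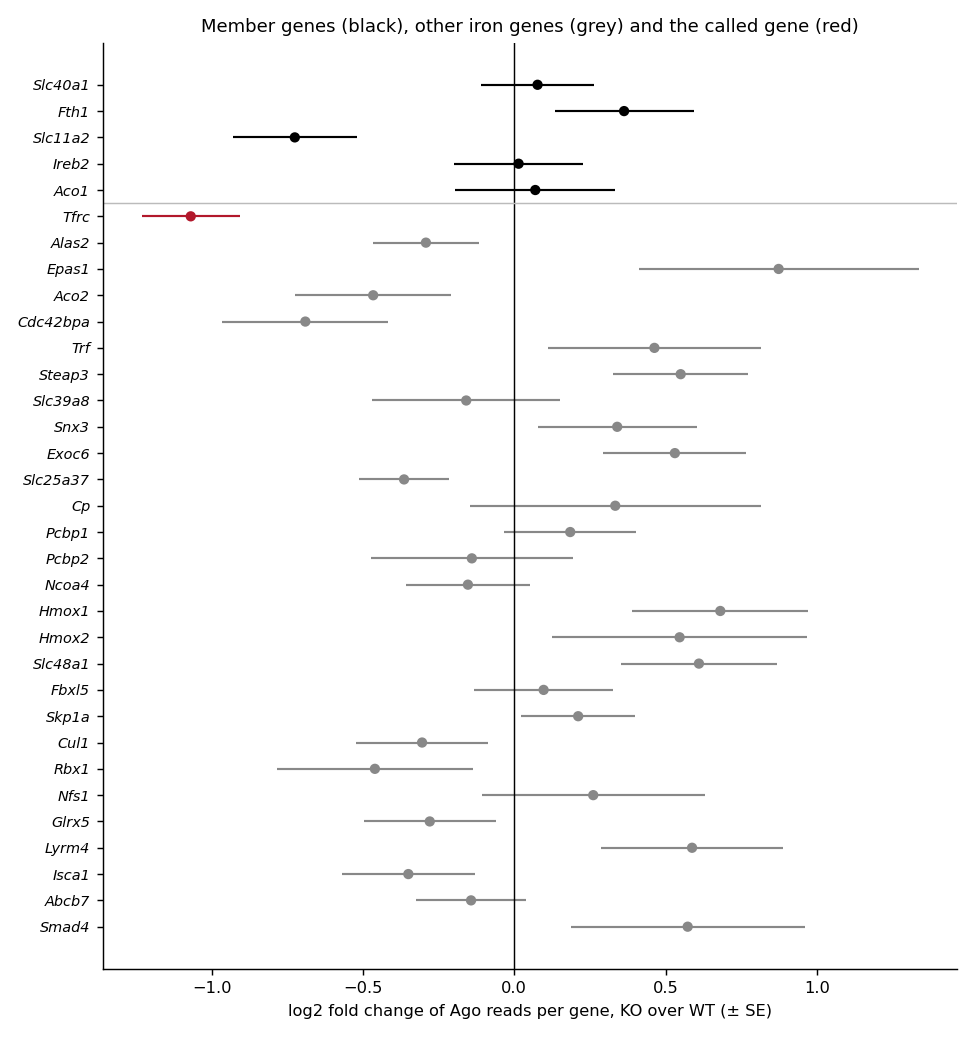
Log2 fold change of Ago reads per gene, KO over WT, with its standard error, for the 5 tested genes of the 6 (black, top) and the 28 tested genes of the iron list (grey, or red where called). Tfrc at -1.07 is the called gene, and Slc11a2 at -0.73 has an adjusted p of 0.0514.

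Across the 12 libraries the genes most like each of these were found by the Pearson correlation of log2 scaled counts over 2654 tested genes. This is a description only, since the 12 libraries differ in antibody and depth, which the correlation can follow. Slc40a1 was most like Acly (0.96) and Eif4b (0.93). Fth1 was most like Hint1 (0.89), Smyd3 (0.89) and Mllt3 (0.88). Slc11a2 was most like Hp1bp3 (0.95), Mgea5 (0.93) and Mdm2 (0.92). Among the 5 genes themselves the correlation ran from -0.51 for Fth1 and Aco1 to 0.74 for Slc11a2 and Ireb2. Ireb2 was most like Cdc27 (0.98), Wdfy3 (0.96) and Chd7 (0.96), and Aco1 most like Tgoln1 (0.97), Med1 (0.96) and Ppp1r37 (0.95).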

How the data were processed

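The submitters' processing notes name STAR, cutadapt, limma and bedtools and the build mm10, without versions. The authors deposited raw read counts per peak, a read counting where it overlaps a peak by at least 16 bases, for peaks that, per the deposited column description, were called with all Ago libraries pooled, and gave an IgG ratio per peak and a seed match code score per miRNA. The authors' deposited differential table gives log2 fold changes and FDR p-values from limma on peaks they had filtered. The log base is not stated there and is taken as 2, as limma writes it.

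From the counts, edgeR 4.0.16 (R 4.3.3; TMM, filterByExpr with minimum count 10 and minimum total 15, quasi-likelihood test, Benjamini-Hochberg adjustment over all tested features, threshold 0.05) was run on the whole table per peak and on sums per gene name. The KO against WT fits used the 6 Ago libraries, the Ago against IgG fits the 6 libraries of a genotype and the interaction all 12. Library sizes for TMM were the reads of the tested features; those of the alternative by library size alone were the reads in all peaks. A standard error is the log2 fold change over the square root of F. DESeq2 1.42.0 and limma 3.58.1 (voom), other scalings and filters, other choices of peaks and each library left out were alternatives. The minimum count of 3 (with a minimum total of 10), the restriction to the authors' peaks and the block of libraries were chosen after seeing the data. On simulated counts the test per gene recovered 47% of 2-fold and 92% of 4-fold changes of KO against WT, and the test per peak 20% and 90%. Levels are reads per 1000000 reads in peaks (RPM), where 1 read is worth several RPM. Intervals on ratios of summed reads are exact at 95% and cover counting error only: identifiers of single molecules are not described. The ratios are on the RPM scale. On it the median log2 fold change, KO over WT, was 0.30 over tested peaks and 0.08 over tested genes.

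The genes, lists and named items were chosen with earlier results of these data known. The text names all 6 genes and gives each peak that passed the filter or held at least 30 Ago reads; iron genes named are those called and the 4 others with the most Ago reads. The 3 genes most like each gene are named, except 1 that is not reported here. Peak sequences were not used here.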

Additional observations from a re-analysis of the deposited data

How the results depend on the processing

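The number of peaks of these genes called lower in KO against WT was 0 with the main filter, 1 with no filter and 3 with a minimum count of 5, and, chosen after seeing the data, 5 with a minimum count of 3 and 4 among the peaks of the authors' table; it was 0 in every fit that left out a library. These filters differ in which peaks are tested. The number of genes called was 0, and 1 (Slc11a2) with only peaks of IgG ratio under 0.2 or only 3′UTR and coding peaks; leaving out a library gave 0 to 1. It was 2 (Slc11a2 lower and Fth1 higher) with a block of Ago libraries ranked alike in the share of reads without a gene name, chosen after seeing the data, where all genes called were 747 lower and 486 higher against 235 and 29; for peaks the block gave 533 and 201 in the whole table and 0 of these genes. Over its 17 alternatives the Slc11a2 log2 fold change ran from -0.90 to -0.59 and its adjusted p from 1.46e-04 to 0.233. The Ago against IgG count was 1 in WT, but 2 by library size alone (Ireb2 and Aco1 higher, not Fth1), 0 with only peaks of IgG ratio under 0.2 and 0 to 1 when a library was left out; in KO it was 0, but 2 by library size alone (Slc40a1 and Ireb2). In WT, Fth1 was lower in all 14 alternatives (-1.46 to -0.54) but not called with no filter (adjusted p = 0.353), and Ireb2 was called with no filter (1.51, adjusted p = 0.0456) and without WT IgG library 2 (1.95, adjusted p = 0.0354) in place of Fth1. The cause was not tested. Of 367 values of single genes and peaks under alternatives, none that was called changed sign, and 34 that were not called did. In the whole table, scaling by library size alone gave 384 lower and 83 higher peaks against 428 and 34 with TMM; for Ago against IgG it gave 154 lower and 584 higher genes in KO against 207 and 43, and 265 and 675 in WT against 339 and 52. No paired analysis was possible because the labels give the groups no shared library numbers; the block above rests on the data and not on the design. Depth limits the IgG comparisons, since these genes held from 0 to 75 reads per IgG group.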
